A study of Triticum aestivum with 4 samples.

Results

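Homoeologous group 5 of bread wheat is the set of chromosomes 5A, 5B and 5D, which are largely counterparts of each other in the A, B and D genomes. The peaks of the wheat clock protein TaCCA1-7D on these chromosomes were taken from the deposited peak list by the chromosome name alone, which gave 65402 of 467343 peaks, or 14.0% of the list. Of these, 23755 lay on 5A, 23259 on 5B and 18388 on 5D. The reference for the comparisons was the 394728 peaks on the other 18 named chromosomes. The unplaced scaffolds were left out. Positions are counted from 1 on the Ensembl 1.0 wheat genome that the authors aligned to.

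The list comes from DNA affinity purification sequencing (DAP-seq), in which sheared genomic DNA is incubated with a tagged transcription factor on beads and the bound fragments are sequenced. The bait was TaCCA1-7D fused to maltose-binding protein, and the DNA came from leaves of 2-week-old seedlings of the cultivar Fielder, grown with 16 h of light at 22°C and 8 h of dark at 19°C. There were 2 TaCCA1-7D libraries and 2 input libraries, all from the same cultivar and tissue. The DNA was stripped of chromatin and bound in a tube, so a peak shows where the protein can bind naked DNA and not where it sits in a leaf cell. A single list stands for the TaCCA1-7D libraries, and the spread between them cannot be computed from it.

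CCA1 is a MYB-like transcription factor of the morning arm of the plant circadian clock. It is known from Arabidopsis to bind the evening element, a short AT-rich sequence, in the promoters of genes expressed towards dusk. Chromosomes of group 5 are known in wheat for the VRN1 flowering genes on their long arms, the Q domestication gene on 5A, the Ph1 locus that controls chromosome pairing on 5B and the grain hardness locus on 5D. None of these loci is placed here, since the gene annotation of the authors' genome build was not used. For the same reason no sequence under a peak is shown.

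Peaks were spread along group 5 at close to the density of the rest of the genome. Chromosome 5A carried 33.5 peaks per Mb up to its last peak (95% exact Poisson interval 33.0 to 33.9), 5B carried 32.6 (32.2 to 33.0) and 5D carried 32.5 (32.0 to 33.0). These and the later intervals cover counting error only. The density of 5A was the 3rd highest of the 21 named chromosomes, while 5B and 5D stood 10th and 11th. The density of the other 18 ranged from 31.3 to 34.4. The mean over group 5 was 32.9 ± 0.535 peaks per Mb (SD over 3 chromosomes) against 32.7 ± 0.893 over the other 18. This difference of 0.198 was smaller than the spread between chromosomes (p = 0.723, two-sided exact permutation of the 21 chromosomes). The SD and the test describe chromosomes of a single list and not repeats of the experiment.

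In the whole list 5A was denser than 5B and 5D. The density of 5B was 0.974 of that of 5A (95% exact interval 0.957 to 0.992) and that of 5D was 0.971 (0.952 to 0.989). In the other 6 homoeologous groups the ratio of B to A ran from 0.937 in group 3 to 1.002 in group 4. The ratio of D to A ran from 0.939 in group 1 to 1.003 in group 2. Both ratios of group 5 ranked 3rd of 7 and so lay inside the values of the other groups. With peaks of a false discovery rate (FDR) below 1e-10 alone, the ratio of 5B to 5A was 1.01 (0.974 to 1.06) and that of 5D to 5A was 0.972 (0.931 to 1.02). Among the strong peaks, here those above 10 in fold enrichment, they were 0.978 (0.8775 to 1.089) and 0.967 (0.861 to 1.085). These intervals include equality.

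**Figure D1:**
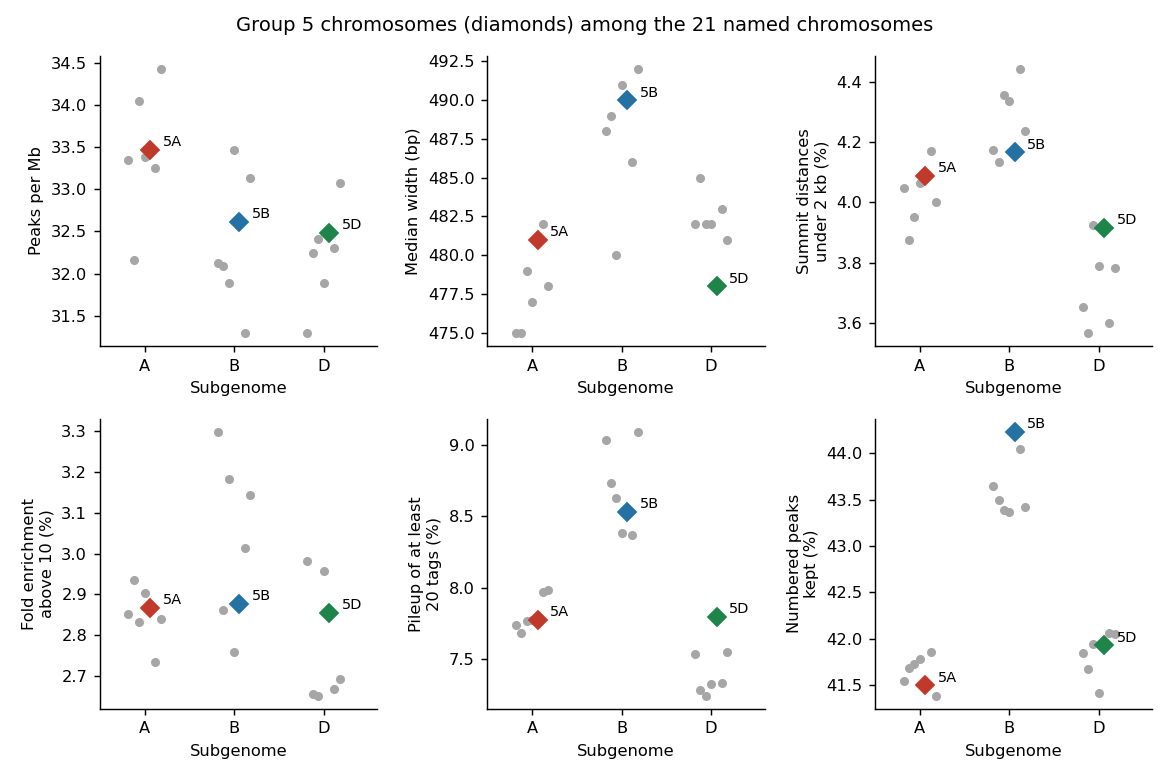
Each panel plots 1 measure for the 21 named chromosomes, with the subgenome on the horizontal axis and the unit on the vertical axis, which does not start at 0. Diamonds are 5A, 5B and 5D and grey points are the other 18 chromosomes. The diamonds lie within or next to the grey points of their subgenome, 5B is the highest of all in the share of numbered peaks kept, at 44.2%, and 5D is above the other D chromosomes in the share of pileups of at least 20 tags.

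Along each chromosome the peaks were counted in bins of 10 Mb. The 70 full bins of 5A held a median of 339 peaks, from 202 to 390. The 71 bins of 5B held a median of 323, from 239 to 399, and the 56 bins of 5D a median of 329.5, from 205 to 372. The bin counts thus varied within about the same limits on each homoeologue. The coefficient of variation of the bin counts was 9.97% on 5A, 9.95% on 5B and 8.37% on 5D. The variance was 3.35 times the mean on 5A, 3.23 times on 5B and 2.28 times on 5D, where independent peaks would give a ratio of 1. The mean ratio over group 5 was 2.95 ± 0.584 against 3.85 ± 1.75 over the other 18 (SD), a difference that was within the spread of chromosomes (exact two-sided permutation test, p = 0.401).

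Low bins were few. Of the 197 bins of group 5, 5 lay below the 5th percentile of the bins of the other 18 chromosomes, 259 peaks, and 12 lay above the 95th percentile, 375 peaks. These are 2.54% and 6.09% of the bins, against 4.75% and 4.92% of the 1200 bins on the other chromosomes. The high bins were 8 on 5A, 4 on 5B and 0 on 5D.

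On 5A the lowest bin, from 250 to 260 Mb, held 202 peaks (95% exact Poisson interval 175 to 232). The bins just before it, from 230 to 240 Mb and from 240 to 250 Mb, held 294 (261 to 330) and 293 peaks (260 to 329), below the median bin of 5A, while the bin after it held 339. Their shares at the lowest background were 27.9% and 25.9%. In the lowest bin 36.6% of the peaks had the lowest background, the highest share of the 70 bins, and 2.48% had a background above 2 tags, the lowest share. The background is the number of tags that the peak caller MACS2 expects at a summit, and its lowest value, 0.621 tags, is found where few tags lie nearby. The second lowest bin of 5A, from 420 to 430 Mb, held 224 peaks with 21.9% at the lowest background, close to the median bin of 5A at 20.9%. The low bins of 5A therefore differed from each other in their background.

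On 5B the lowest bin was from 380 to 390 Mb, with 239 peaks (210 to 271), followed by the bins from 200 to 210 Mb and from 590 to 600 Mb with 261 peaks each. On 5D the lowest were from 140 to 150 Mb with 205 peaks (178 to 235) and from 180 to 190 Mb with 240 (211 to 272). In these bins of 5D, 32.2% and 34.6% of the peaks had the lowest background, against 22.5% in the median bin of 5D. In the lowest bin of 5B the share was 19.7%, below the median of 22.3%. The low bin of 5B contains a single gap of 2.02 Mb, which would hold 65.9 peaks at the density of 5B. The next lowest bins are named here although the rule for naming bins took only the lowest, and they were chosen after their values were seen. Centromere positions were not used here.

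The fullest bins were from 320 to 330 Mb and from 580 to 590 Mb on 5A, with 390 peaks each. On 5B the fullest was from 120 to 130 Mb with 399 peaks (361 to 440), and on 5D from 480 to 490 Mb with 372 peaks (335 to 412). The fullest bin of 5B had 1.00% of its peaks at a fold enrichment above 10, the 2nd lowest share among the 71 bins of 5B. Density and strength were nearly unrelated across bins. Pearson's r between the number of peaks and the share with a fold enrichment above 10 was 0.121 on 5A (n = 70 bins), -0.202 on 5B (n = 71) and -0.148 on 5D (n = 56). The bins share libraries and neighbours, so these correlations are descriptions.

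**Figure D2:**
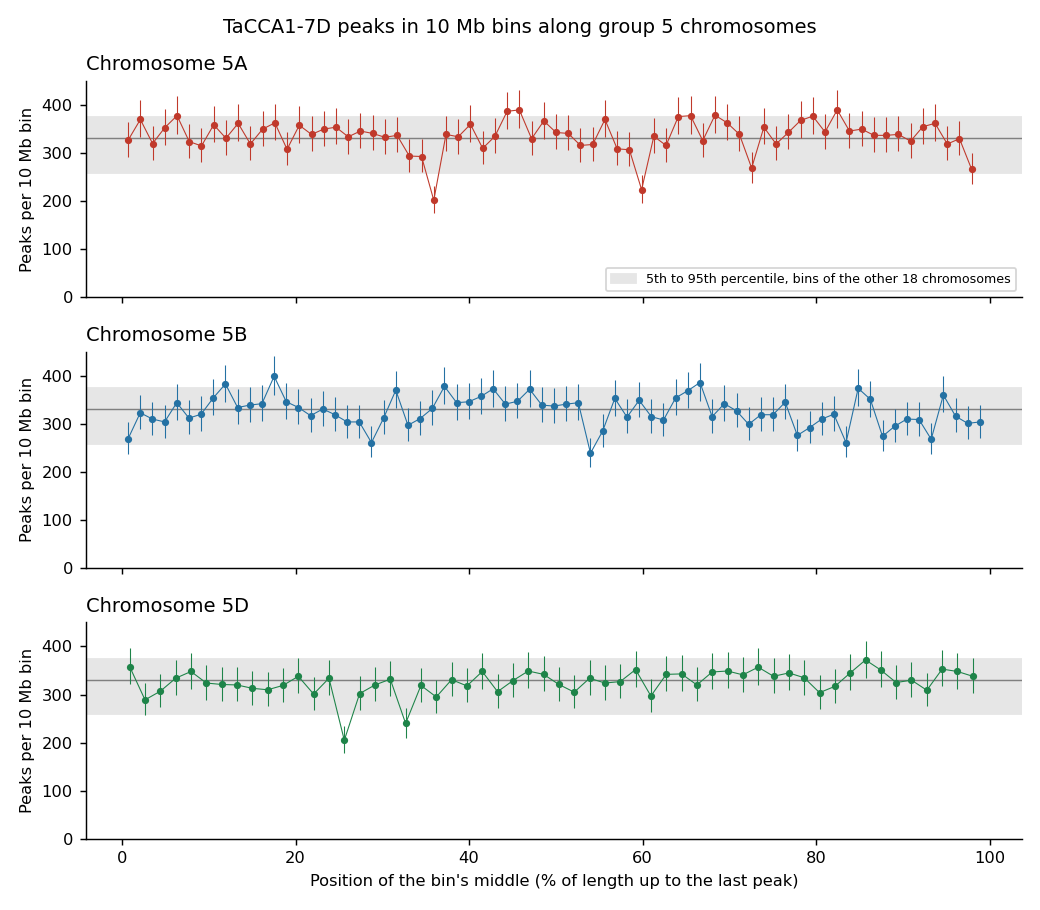
Peaks per full 10 Mb bin are plotted against the position of the bin's middle as a percentage of chromosome length (to the last peak), for 5A, 5B and 5D. Error bars are 95% exact Poisson intervals, the grey band spans the 5th to the 95th percentile of the bins of the other 18 chromosomes (259 to 375 peaks) and the grey line is their median (331). Most bins lie in the band, with dips to 202 and 224 on 5A, 239 on 5B and 205 and 240 on 5D.

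The dips and rises of the homoeologues were only weakly related in position. With each chromosome cut into 50 parts of equal length, Pearson's r between the density profiles was 0.117 for 5A and 5B, 0.221 for 5A and 5D and 0.0943 for 5B and 5D (n = 50 parts each). Spearman's rho was 0.142, 0.146 and 0.0632 for the same pairs. In the other 6 groups r ranged from -0.351 for 7B and 7D to 0.389 for 7A and 7D. Relative position does not match homoeologous sequence exactly, so a low r does not show that homoeologous sites differ in their peaks.

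The distal end of 5A was sparse. The last 10 Mb up to the last peak held 174 peaks, or 17.4 per Mb (95% exact Poisson interval 14.9 to 20.2), against 33.5 over the whole chromosome. Among the 42 chromosome ends of the genome this density ranked 40th, tied with the last 10 Mb of 7B. The other 5 ends of group 5 carried from 26.9 to 35.8 peaks per Mb, and the 36 ends of the other chromosomes from 6.50 to 41.9 with a median of 31.0. The peaks at this end of 5A had a median width of 409.5 bp, 40th of the 42 ends, and 39.7% were at the lowest background, the 2nd highest share. Their share with a fold enrichment above 10 was 4.02% (95% Wilson interval 1.96 to 8.07%), so strength was not detectably lower at this number of peaks. The part of the low background in the low density was not tested.

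Between neighbouring summits the median distance was 20687 bp on 5A, 20483 bp on 5B and 21663 bp on 5D. The median of 5D was the 2nd longest of the 21 chromosomes and that of 5B the 2nd shortest, although both carried nearly the same number of peaks per Mb. The mean distances were 30659 bp on 5B and 30785 bp on 5D. Over group 5 the mean of the medians was 20944 ± 631 bp, against 21049 ± 476 bp over the other 18 (SD, exact two-sided permutation test, p = 0.759).

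The 2 longest gaps of the list lay on 5B. The longest distance between neighbouring summits was 2.22 Mb on 5B, from 623226633 to 625450356. The next on 5B was 2.02 Mb, from 384310781 to 386330533, and the 3rd was 1.42 Mb, from 200369329 to 201785518. These ranked 1st, 2nd and 5th among the distances on all 21 chromosomes. The 3rd, 4th and 6th also lay on B chromosomes, with 1647524 bp on 2B, 1610827 bp on 3B and 1351153 bp on 6B. The 2nd and 3rd gaps of 5B were added to the longest of each chromosome after their values were seen. The longest distance on 5A was 0.682 Mb, from 431073129 to 431754879, and on 5D it was 0.725 Mb, from 146417719 to 147142435. Those ranked 58th and 47th. Distances of 500 kb or more numbered 11 on 5B, 5 on 5A and 1 on 5D, or 0.0260% of the pairs of group 5 against 0.0296% on the 21 named chromosomes. The other B chromosomes had from 6 to 20 such distances with a median of 11.5, so the number of such gaps on 5B was near that of the other B chromosomes. Of distances of 200 kb or more, 5B had 90 and ranked 5th of the 7 B chromosomes.

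The gaps of 5B were also nearly free of peaks that the authors had called and then filtered out. The peaks carry the running numbers that MACS2 gave them before the filter, so the numbers missing between neighbouring peaks count the calls that were dropped there. In the longest gap 5 numbers were missing, where the dropped calls per Mb of 5B would give 91.4. In the 2nd gap 9 were missing against 83.1, and in the 3rd gap 3 against 58.2. In the longest gaps of 5A and 5D, 6 were missing against 32.2 and 4 against 32.6. The gaps were thus low in calls before the filter as well. This reading holds if each running number was given to 1 peak.

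Close pairs made up a small share of the neighbours. Summits less than 2 kb apart were 971 of 23754 neighbouring pairs on 5A, or 4.09% (95% Wilson interval 3.84 to 4.35%), against 4.04% on the 21 named chromosomes. They were 4.17% on 5B and 3.92% on 5D. The mean over group 5 was 4.06 ± 0.128%, against 4.01 ± 0.260% over the other 18 (exact two-sided permutation test, p = 0.759). Between 2 and 5 kb there were few pairs. These numbered 726 on 5A, 726 on 5B and 558 on 5D, which is 0.303, 0.313 and 0.287 times the number of pairs 5 to 8 kb apart. On 5D this ratio was the 2nd lowest of the 21 chromosomes and on 5A it was the highest among the A chromosomes.

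Peaks with a close neighbour were narrower and weaker than the rest on all 3 chromosomes. Where the nearest summit was under 2 kb away, the median width was 363 bp on 5A, 373 bp on 5B and 352 bp on 5D, and 1.23% of these 5290 peaks of group 5 had a fold enrichment above 10. Where it was 2 to 5 kb away, the share was 0.562% of 3912 peaks. Where it was 5 to 20 kb away, the median width was 505 bp and the share was 3.09% of 38691 peaks. The share was highest, at 4.14% of 2103 peaks, where the nearest summit was 50 kb or more away. The other 18 chromosomes followed the same order, with 1.68%, 0.672%, 3.14% and 3.32% for these 4 distances, so it was not particular to group 5. The pileup did not follow this order. Its median was 12 tags for peaks with a neighbour under 2 kb and 12 for those with none within 50 kb, while the median background was 1.21 and 0.862 tags. Where the nearest summit was 2 to 5 kb away, the median pileup was 13 tags and the median background 1.36. The fold enrichment is the ratio of the pileup to this background, each with 1 tag added, and every peak had passed the minimum of 5. The part of pileup and background in the differing shares was not tested.

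**Figure D3:**
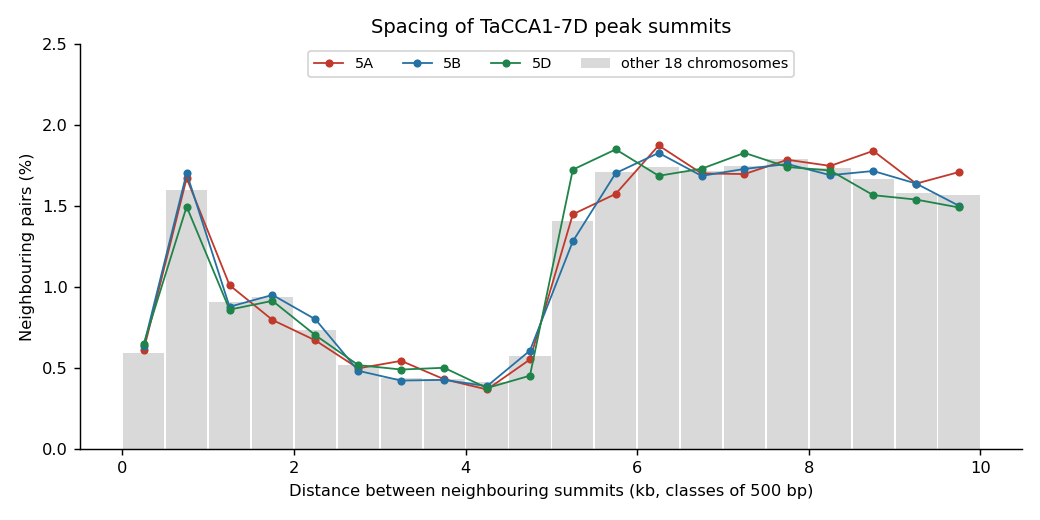
The percentage of neighbouring pairs is plotted against the distance between their summits in classes of 500 bp up to 10 kb. Lines are 5A, 5B and 5D and bars are the other 18 chromosomes together. The lines follow the bars. Both show a first rise between 500 and 1000 bp, a trough between 2 and 5 kb and a step up at 5 kb. There group 5 goes from 355 pairs in the class below 5000 bp to 959 pairs in the class above it. The part of the background in the trough and the step was not tested.

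Widths were much alike on the 3 homoeologues, with B the widest. The median width was 481 bp on 5A (quartiles 329 and 659), 490 bp on 5B (331 and 672) and 478 bp on 5D (325 and 657). The upper quartile of 5B was the highest of the 21 chromosomes, with up to 671 bp on the other 18. The median of 5D was the lowest of the D chromosomes. Peaks of 1000 bp or more were 937 on 5A, or 3.94%, 959 on 5B, or 4.12%, and 647 on 5D, or 3.52%, against 3.79% on the 21 named chromosomes. The 95% Wilson intervals were 3.70 to 4.20%, 3.88 to 4.39% and 3.26 to 3.79%, so the interval of 5D lay below that of 5B. The remaining B chromosomes ran from 3.75 to 4.15% and the remaining D chromosomes from 3.45 to 3.73%, so this order was not particular to group 5. The mean over group 5 did not differ detectably from that of the other 18, for the median width (exact two-sided permutation test, p = 0.954) or for the wide peaks (p = 0.511, same exact test).

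The single widest peaks had fold enrichments far below 10. On 5A the widest peak (332234482 to 332236623) spanned 2142 bp and had a fold enrichment of 5.94 and a pileup of 20 tags. The widest on 5B (340758232 to 340760042) spanned 1811 bp, at a fold enrichment of 6.86. The widest on 5D (528412718 to 528414419) spanned 1702 bp, at a fold enrichment of 5.30. Across group 5 the share of peaks with a fold enrichment above 10 rose from 0.797% below 300 bp to 4.27% from 500 bp to under 800 bp, reached 4.47% from 800 bp to under 1000 bp and was 3.30% at 1000 bp or more. In this widest class it was lower on 5A and 5B, at 2.99% and 2.71%, and on 5D it was 4.64%, the highest of the 5 classes of 5D. The pileup kept rising with width, from a median of 10 tags below 300 bp to 16 tags at 1000 bp or more. Only 0.511% of the widest class had the lowest background, against 42.1% of the narrowest.

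**Figure D4:**
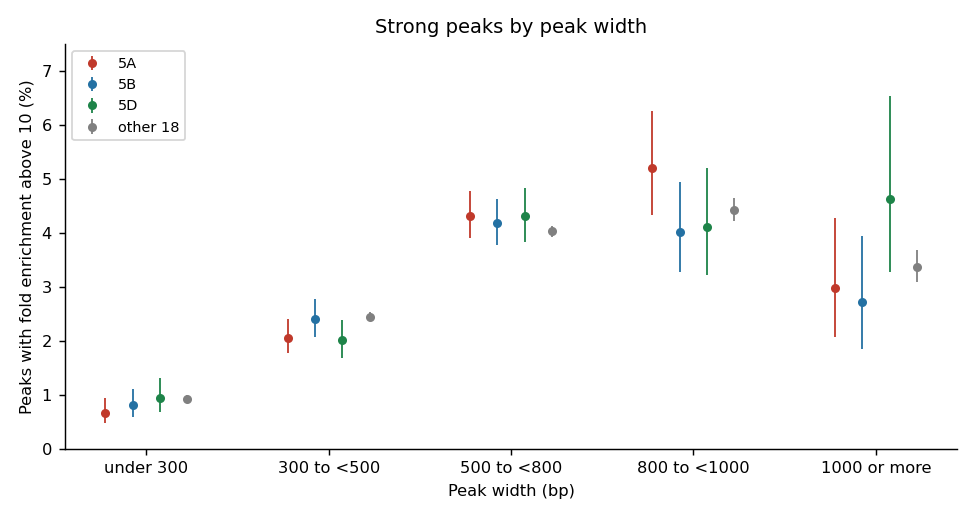
The percentage of peaks with a fold enrichment above 10 is plotted for 5 classes of peak width in bp. Points are 5A, 5B, 5D and the other 18 chromosomes together, with 95% Wilson intervals. All rise from under 1% below 300 bp to between 4.02 and 5.21% in the 2 classes from 500 to under 1000 bp. At 1000 bp or more, 5A and 5B stand at 2.99% and 2.71%, and 5D stands at 4.64% (3.27 to 6.54%), with intervals that overlap.

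Fold enrichment, the ratio in column 7 of the list, was low and even. The median was 6.17 on 5A, 6.22 on 5B and 6.18 on 5D, and all 3 chromosomes started at 5.002, just above the authors' minimum of 5. A fold enrichment above 10 was found for 681 peaks of 5A, or 2.87% (95% Wilson interval 2.66 to 3.09%), against 2.89% on the 21 named chromosomes. It was found for 669 peaks of 5B, or 2.88% (2.67 to 3.10%), and for 525 peaks of 5D, or 2.86% (2.62 to 3.11%). The highest and the lowest of these shares were 0.0212 percentage points apart. In the other 6 groups the homoeologues were from 0.199 points apart in group 4 to 0.530 in group 3. The near equality in group 5 is closer than the counting error of each share, and it was not tested. It arose with 5B in the lower part of the B chromosomes (5th of 7) and 5D in the upper part of the D chromosomes (3rd of 7). Over group 5 the mean was 2.87 ± 0.0106%, against 2.89 ± 0.187% over the other 18 (exact two-sided permutation test, p = 0.857).

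The strongest peaks were not wide. On 5A the highest fold enrichment was 32.5, from 599224101 to 599224430, with 99 tags over a background of 2.08. The next was 30.7, from 642830536 to 642830947, with 116 tags. The 3rd on 5A was 29.0, from 338149034 to 338149539, with 236 tags, the highest pileup of group 5, over a background of 7.16. These ranked 5th, 9th and 14th in the whole list. On 5B the 3 highest were 26.7 from 696995166 to 696995587, 24.6 from 489320679 to 489321060 and 22.8 from 599550628 to 599551048. On 5D they were 26.6 from 262084138 to 262084464, 26.0 from 442652390 to 442652996 and 23.9 from 7636049 to 7636437. The 9 peaks were from 327 to 607 bp wide. A fold enrichment above 20 was found for 7 peaks on 5A, 8 on 5B and 10 on 5D. These were 25 of the 65402 peaks of group 5, against 158 of 460130 on the 21 named chromosomes. The number on 5D was the 3rd highest of the 21 chromosomes, where the other 18 ran from 3 to 14, and it rests on 10 peaks.

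The number of tags behind a peak was small. A whole-number pileup could be worked back from the fold enrichment and the p-value for every peak of group 5, with a median of 12 tags on each of 5A, 5B and 5D, and 92.0% of the peaks had fewer than 20. At or above 20 tags stood 1847 peaks of 5A, or 7.78%, with 8.53% on 5B and 7.79% on 5D, against 8.02% on the 21 named chromosomes. The share of 5D was above that of each of the other 6 D chromosomes, which ran from 7.24 to 7.55%. The 95% Wilson interval of 5D, 7.41 to 8.19%, includes part of that range. A background above 2 tags was also more frequent on 5D than on the other D chromosomes, at 6.59% against 5.92 to 6.33%. Group 5 as a whole did not differ detectably from the other 18 in pileup (exact two-sided permutation test, p = 0.865).

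The filter kept a larger share of the calls on 5B than on any other named chromosome. By the running numbers, 52587 peaks had been called on 5B and 44.2% were kept (95% Wilson interval 43.8 to 44.7%), against 41.5% of 57244 on 5A and 41.9% of 43854 on 5D. The other 6 B chromosomes kept from 43.4 to 44.0%, and the interval of 6B, 43.6 to 44.5%, overlapped that of 5B. Fewer peaks had been called per Mb on 5B, at 73.7, than on 5A at 80.7 and 5D at 77.5. The other B chromosomes had from 71.1 to 77.2 calls per Mb, so the low value was not particular to 5B. The kept density of 5B came close to that of 5D from fewer calls per Mb. The mean over group 5 was 42.6 ± 1.47%, against 42.4 ± 0.908% over the other 18 (exact two-sided permutation test, p = 0.641). With p-values adjusted over the 10 measures compared in this way (Benjamini-Hochberg), the lowest adjusted p was 0.954, so none separated group 5 from the other chromosomes.

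Peaks with a fold enrichment above 10 took nearly the same share at the ends of 5A and 5D as in between. In the outer 10% at each end of 5D, 106 of 3716 peaks had a fold enrichment above 10, or 2.85%, and in between it was 2.86% of 14672. The difference was -0.00325 percentage points (95% Newcombe interval -0.567 to 0.637). On 5A it was 0.135 points (-0.380 to 0.713), with 2.98% in the outer parts and 2.84% in between. On 5B it was 0.846 points (0.285 to 1.47), with 3.56% and 2.71%. Each of the other 18 chromosomes had a higher share in its outer parts, by 0.432 to 1.71 points, and the interval lay above 0 for 15 of them. The differences of 5A and 5D were the 2 lowest of the 21 and that of 5B was 11th.

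This comparison of the ends was added after the values had been seen. The mean was 0.326 ± 0.456 points over group 5 and 1.06 ± 0.468 over the other 18 (SD), a difference of -0.730 (p = 0.0173, two-sided exact permutation of the 21 chromosomes). Adjusted over the 4 measures of the ends that were compared, p was 0.0346 in the exact test. Over all 14 measures of group 5 it was 0.121, which misses 0.05. Neither adjustment covers the choice of this comparison after the values were seen. The pattern rests on 5A and 5D. Without 5A the difference was -0.634 (p = 0.0947, exact permutation test) and without 5D it was -0.565 (p = 0.137, same exact test). The share of pileups of at least 20 tags was compared as well. The pileup was worked back from the same fold enrichment, so this share is not an independent measure. The outer parts exceeded the inner in it by 0.513 points on 5A, 1.55 on 5B and 1.06 on 5D, against 0.987 to 3.44 on the other 18. Only 5A lay outside that range. For the mean over group 5 the same exact test gave p = 0.0150 (adjusted p = 0.0346 over the 4 measures and 0.121 over all 14). The share at the lowest background differed between the outer and inner parts by 0.198 points on 5A, 1.86 on 5B and 0.780 on 5D. These lay inside the range of the other 18, from -1.87 to 2.75, and the difference was not tested. Density and median width did not separate group 5 at the ends (p = 0.320 and p = 0.647, same exact test). On 5A alone the outer median width was lower than the inner by a difference of -15.5 bp, outside the range of the other 18, from -12 to 12 bp.

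Each chromosome was also cut into 10 parts of equal length. In 5 of the 30 parts of group 5 the share of strong peaks lay above the same part of all the other 18 chromosomes, and in 2 of 30 it lay below them. For comparison, 5.56% of the parts of the other 18 necessarily lie above, and 5.56% below, the remaining 17. For pileups of at least 20 tags 2 parts lay above and 2 below, and for density 0 lay above and 1 below. These counts were not tested. In the 3rd part of 5D, 3.71% of 1672 peaks had a fold enrichment above 10, where the other 18 ran from 1.68 to 3.04%. This part also had the lowest density of the 10 parts of 5D, 29.5 peaks per Mb. In the 8th part of 5A the share was 3.73% of 2389 peaks, where the others ran from 2.14 to 3.16%. At the distal end, the 10th part of 5D stood at 2.84% and lay below the range of the others, 3.06 to 5.33%. The bins with the highest share were from 10 to 20 Mb on both 5A, at 5.41%, and 5B, at 5.88%, and from 460 to 470 Mb on 5D, at 4.73%.

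**Figure D5:**
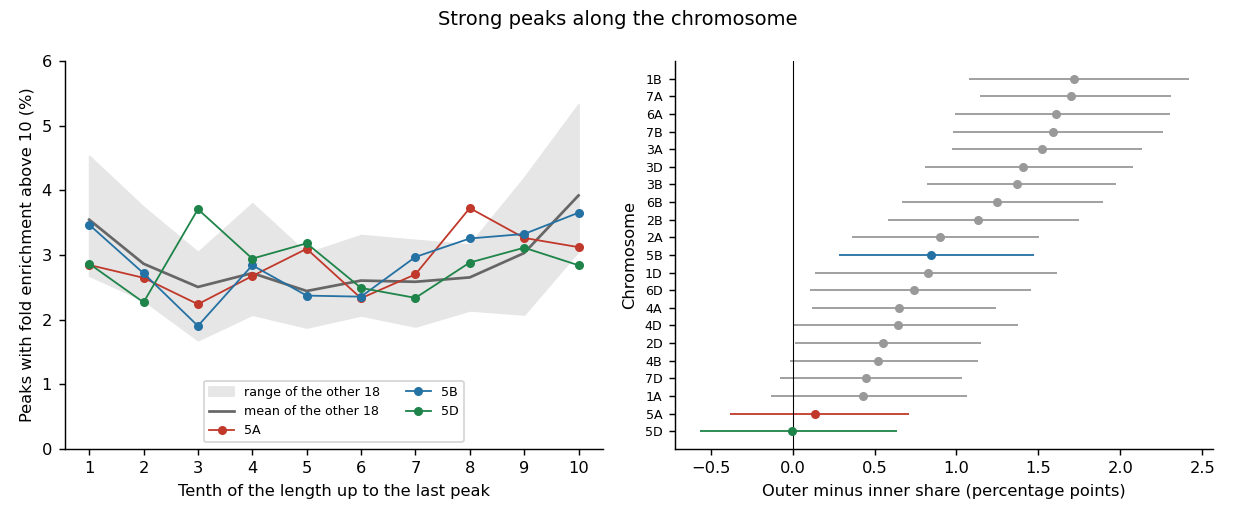
Left, the percentage of peaks with a fold enrichment above 10 in each of 10 equal parts of the length of 5A, 5B and 5D, with the mean (line) and range (band) of the other 18 chromosomes. Right, the share in the outer 10% at each end minus the share in between, in percentage points, for the 21 chromosomes with 95% Newcombe intervals. The mean of the other 18 is 3.55% in the first and 3.92% in the last part, while 5A and 5D stay at 3.12% or below there and have the 2 lowest differences, 0.135 and -0.00325 points.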

How the data were processed

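Reads of the TaCCA1-7D DAP-seq libraries were trimmed with Trimmomatic, aligned by the authors to the Ensembl 1.0 wheat genome with Bowtie2 2.3.4, filtered at a mapping quality above 10 with SAMtools 1.9, cleared of duplicates with Picard and passed to MACS2. The authors then applied minimums to the calls, FDR below 1e-5 and fold enrichment over 5, and 0 peaks of the list failed them. For later steps the paper kept only peaks that overlapped accessible chromatin (DNase I hypersensitive sites). The list described here holds the peaks before that step. The control library and any pooling of replicates are not given in the sources used here. It is therefore not known here whether the fold enrichment was taken over the input libraries. The deposited values are a fold enrichment (a ratio), a −log10 p-value, a −log10 q-value and a score made from the q-value by the authors' peak caller. The list holds no depth per library. The study gives clearly unequal read totals for the TaCCA1-7D libraries, which are not used here. Precision was judged from numbers of peaks and tags.

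Pileup and background were worked back from the fold enrichment (pseudocount 1) and the Poisson p-value, with a misfit under 0.0001 for 100.0% of the peaks of group 5, by a method tested on simulated data. Group 5 was compared with the other 18 chromosomes in 10 measures by exact permutation of chromosomes (1330 choices), and within subgenomes as an alternative. Other alternatives were stricter filters, other bins and other thresholds. Named were the 3 strongest peaks, the widest peak, the extreme bins and the longest gaps of each chromosome. The region and measures were chosen with earlier results of these data known. Python 3.11.15, numpy 2.4.6, pandas 2.3.3, scipy 1.17.1 and matplotlib 3.10.9 were used.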

Additional observations from a re-analysis of the deposited data

How the results depend on the processing

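The 10 differences between group 5 and the other chromosomes missed the 0.05 threshold of the exact permutation test as reported and under every alternative run for them, permutation within subgenomes included. Small differences changed sign in places. The density difference was -0.000663 peaks per Mb with a fold enrichment above 10 (0.198 as reported). The difference in the share of strong peaks was 0.264 percentage points at a threshold of 8 (-0.0210 at 10), and that in pileups was -0.0271 points at 30 tags (0.0664 at 20). The density of 5B relative to 5A was 1.01 with an FDR below 1e-10 (0.974 as reported). The lower excess of strong peaks at the ends, added after seeing the data, kept its direction. It missed the threshold with the outer 15% at each end (-0.457 points, exact permutation p = 0.0662), with 5A left out (-0.634) and with 5D left out (-0.565). It kept its side with the outer 5% (-0.765), a threshold of 8 (-1.49) and 5B left out (-0.990). The causes were not tested. No paired analysis was possible because a single list covers all libraries, and for the same reason no library could be left out. Single peaks rest on few tags and single bins on at most 399 peaks, which limits the values given for them.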
